A study of Mus musculus with 8 samples.

Results

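Isg15, Usp18, Herc6, Mx1, Mx2, Rsad2, Cmpk2, Bst2, Ifi44 and Xaf1 are 10 mouse genes that interferon switches on and whose products act on viruses or on the interferon response itself. They were chosen by name as a core set of interferon-induced antiviral effectors, and not by a threshold on any value. The choice was made with earlier results of these data known. All 10 are among the 53465 genes counted in the fibroblast libraries, and 9 are among the 31053 genes counted in the T cell line. Mx2 in the T cell line was not analysed here.

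The series concerns how the transcription factor TCF-1, the product of Tcf7, changes genome folding during T cell development. Its RNA-seq was measured in 8 libraries, with 2 in each of 4 groups. NIH-3T3 is a mouse embryonic fibroblast line, and Scid.adh, grown out of a lymphoma of the thymus, stands in for thymocytes at the DN3 stage. The groups were 3T3 cells with TCF-1 induced, untreated wild-type 3T3 cells (called normal), Scid.adh cells with the genotype Tcf7-/- (knockout) and Scid.adh cells with an empty vector.

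All 4 3T3 libraries carry 72 hours and the words Cas9 and empty in their file headers, while only the induced ones also name doxycycline. What the drug did and what TCF-1 did cannot be told apart. No label or header says whether the knockout cells were 1 clone or a pool. Nor do the labels say that replicates were separate cultures, so the p-values reflect how far these libraries spread, which may be only technical.

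Type I interferons bind a receptor on the cell surface, whose kinases activate factors of the STAT family. With IRF9 these enter the nucleus and bind a DNA element, the interferon-stimulated response element or ISRE, near the genes described here. The products then tag proteins, trap or poison viral particles and genomes, or damp the signal. Such genes answer interferon in nearly all cell types, fibroblasts and thymocytes included.

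Promoter sequence is shown for the genes whose windows held ISRE letters, since the genes moved together in 3T3. RefSeq windows of GRCm38.p6, from 250 bases before to 50 bases after the start, were at hand for 7 of the 10 genes, without Usp18, Mx1 and Mx2. The ISRE letters GAAANNGAA, searched on both strands, were in 4 of these 7 windows (57.1%) and in 2812 of all 32851 windows (8.56%). With a further A at the end of the motif the shares were 42.9% of the 7 windows and 3.44% of all windows. The TCF letters CTTTGAA or CTTTGAT or CTTTGTA or CTTTGTT, on both strands, were in 0 of the 7 windows and in 16.9% of all windows. None of these shares was tested, and the genes were chosen as interferon-induced. With only 7 windows, the absence of the TCF letters says little. The stretches below are printed 5′ to 3′ on the strand of the gene, with the ISRE letters in capitals, and a match describes letters and not a bound site.
Isg15, chr4:156200851-156200921, minus strand: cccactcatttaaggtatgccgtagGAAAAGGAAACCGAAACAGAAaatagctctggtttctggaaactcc
Bst2, chr8:71537563-71537627, minus strand: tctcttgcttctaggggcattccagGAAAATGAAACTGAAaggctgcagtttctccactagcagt
Rsad2, chr12:26456538-26456596, minus strand: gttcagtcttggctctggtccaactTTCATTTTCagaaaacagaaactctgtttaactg
Ifi44, chr3:151749895-151749923, minus strand: aaagtttctcTTCATTTTCtacaggcttg
Isg15 held 3 overlapping matches that together ran from 78 to 58 bases before the start. Bst2 held 2 overlapping matches, from 130 to 116 bases before the start. Rsad2 held 1 match in the opposite orientation, from 119 to 111 bases before the start. The single match of Ifi44, also in the opposite orientation, began 3 bases before the start and ran into the transcript. The windows of Cmpk2, Xaf1 and Herc6 held no ISRE letters.

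The libraries held between 13850213 and 17523677 counts over genes in 3T3 and between 7740198 and 10392402 in Scid.adh. Tcf7 stood at 958.7 CPM in induced and 14.6 CPM in normal 3T3 cells (CPM, the count divided by a library size scaled by TMM, with means of 2 libraries). In Scid.adh it stood at 635.4 CPM in the knockout and 1322 CPM with the empty vector. Where the deletion lies is not given, so a count over the whole gene does not check the knockout. The summed level of 8 fibroblast markers was 23829 to 23938 CPM in induced and 25670 to 26266 CPM in normal 3T3 cells. Of these Fn1 (8609 CPM in induced and 11619 CPM in normal cells), Col3a1 and Pdgfrb fell. Col1a1, Dcn and Pdgfra rose, and Col1a2 and Lum did not pass. The summed level of 9 T-lineage markers was 2260 to 2293 CPM in knockout and 2864 to 2886 CPM in empty-vector Scid.adh cells. Among these Cd28 (log2 fold change 0.71) and Zap70 (0.36) rose, Cd3d did not pass and the others fell. Of the cell types that make or spread interferon, the plasmacytoid dendritic cell markers Siglech and Klk1 and the macrophage marker Adgre1 were at 0 in all 4 3T3 libraries. The 5 plasmacytoid dendritic cell markers together summed to 2.16 to 2.71 CPM in induced and 1.72 to 1.81 CPM in normal cells. Of these Spib, which was not tested, had 0.942 and 0.505 CPM in induced cells, against 0.188 and 0.172 CPM in normal cells, while Ccr9 did not pass and Flt3 was not tested. The 7 macrophage markers summed to 15.2 to 15.8 CPM in induced and 14.4 to 14.5 CPM in normal cells. Among them Cd68 rose (log2 fold change 0.51, adjusted p = 0.0206), while Csf1r and Aif1 did not pass. Itgam, Fcgr1 and Lyz2 were not tested and had lower means in induced than in normal cells. The 9 T-lineage markers summed to 149.6 to 149.8 CPM in induced and 95.6 to 106 CPM in normal 3T3 cells. Thy1 made up most of both sums, with 141.8 and 141.2 CPM in induced cells, against 98.0 and 88.1 CPM in normal cells. Thy1 alone of these 9 was called (log2 fold change 0.61), while Cd3e and Lck did not pass and the others were too rare to test. The part of these markers in the changes of the effectors in 3T3 was not tested.

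In the fibroblasts all 10 genes rose with TCF-1 induction, against 18.5% of the 18185 genes tested (36.8% in either direction). Because the genes were chosen with earlier results of these data known, that contrast is a description only. The median log2 fold change of the 10, induced minus normal, was 2.58, and that of all tested genes was 0.00037. Mx1, Rsad2 and Cmpk2 passed the filter on low counts through the induced libraries alone, so their place in that median is no independent support. The count was also 10 with no filter. For each gene both induced libraries lay above both normal ones in CPM, as they did for 32.4% of all tested genes. In these bulk libraries, more cells that express a gene and more RNA per cell cannot be told apart.

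**Figure D1:**
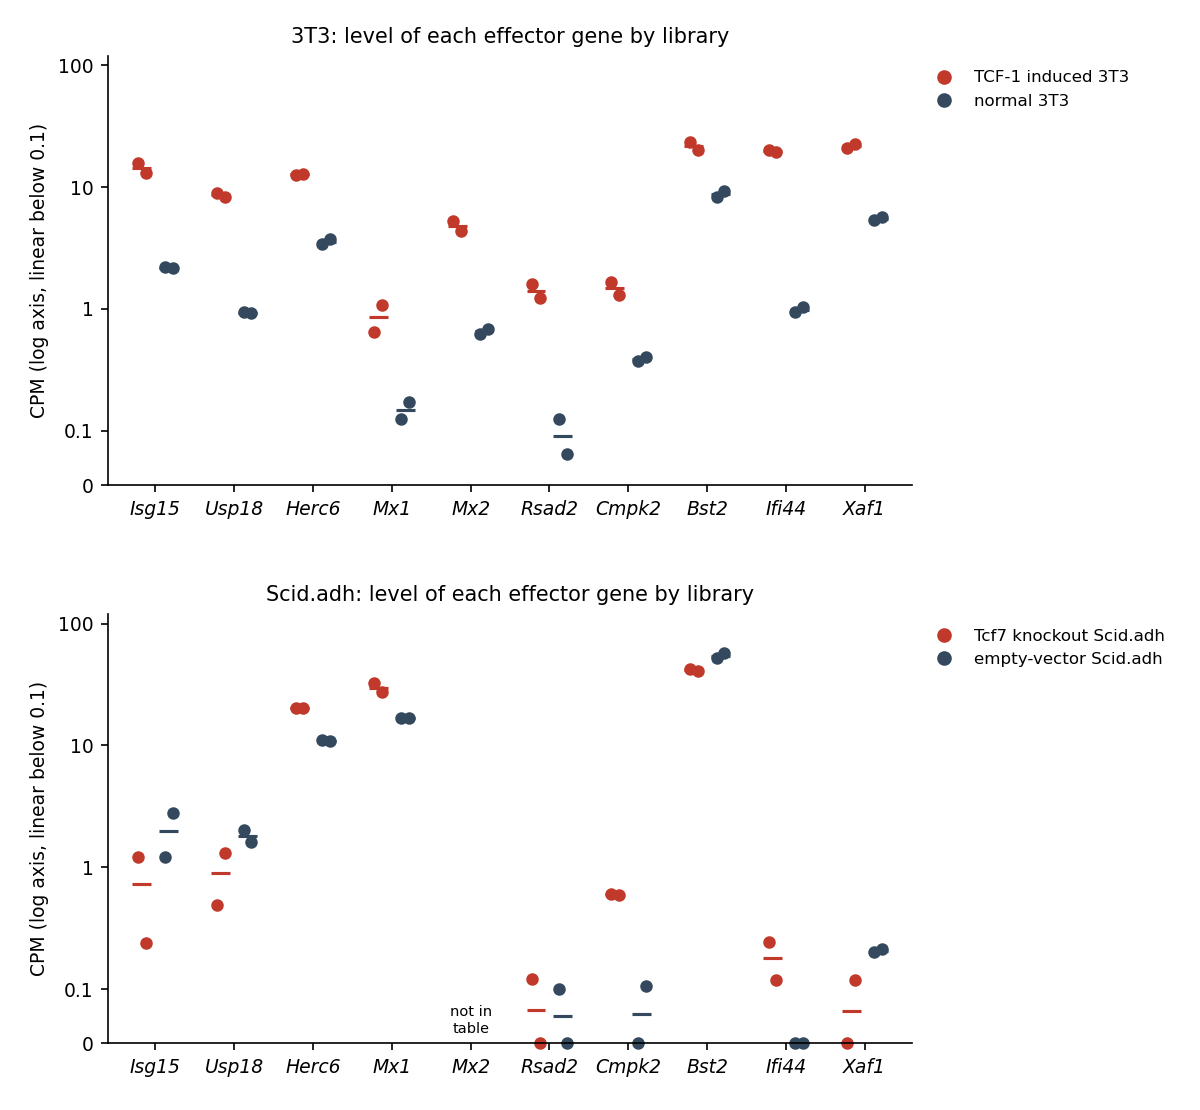
Level of each effector gene in CPM (log axis, linear below 0.1) in every library, as points with the group mean as a line, in 3T3 (top) and Scid.adh (bottom). In 3T3 the induced libraries lie above the normal ones for all 10 genes. In Scid.adh the knockout libraries lie above the empty-vector ones for Mx1 and Herc6 and below them for Bst2. At few counts they also lie above for Cmpk2 and Ifi44 and below for Usp18 and Xaf1.

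Isg15, Usp18 and Herc6 form a system that adds a small protein tag to other proteins and removes it. Isg15 encodes the tag, which resembles ubiquitin (chromosome 4, 156199424 to 156200818, GRCm38). It had 15.6 and 13.1 CPM in induced cells, against 2.19 and 2.18 CPM in normal cells. Its log2 fold change was 2.72 (SE 0.16, adjusted p = 6.00e-19), a 6.60-fold higher level with TCF-1 induced. Usp18 encodes the protease that removes ISG15 and also blocks signalling at the interferon receptor (chromosome 6, 121245906 to 121270917). It had 8.89 and 8.29 CPM in induced cells and 0.938 and 0.919 CPM in normal cells, a log2 fold change of 3.20 (SE 0.21, adjusted p = 5.92e-17). Both low libraries of Usp18 were the normal ones, with 15 and 16 counts. Herc6, in the mouse the main ligase that joins ISG15 to its targets (chromosome 6, 57581000 to 57664632), had 12.6 and 12.8 CPM in induced cells, against 3.38 and 3.73 CPM in normal cells. Its rise of 1.83 (SE 0.14, adjusted p = 9.93e-15) was smaller than those of Isg15 and Usp18. Transcripts of the tag, the protease and the ligase thus all stood higher in both induced libraries.

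Herc6 and Usp18 each share exon sequence with another gene model, and how the counting used strand is not stated. Gm45193 overlaps Herc6 by 1269 bases on the same strand and had 93 and 78 counts in induced cells, against 26 and 28 in normal cells. Gm44148 overlaps Usp18 by 124 bases on the opposite strand and had 48 and 24 counts in induced cells, against 3 and 6 in normal cells. The values of both effectors are uncertain to that extent.

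The Mx genes encode GTPases of the dynamin type that trap viral components, and many laboratory mouse strains carry defective copies. Mx1 (chromosome 16, 97447035 to 97462907) was rare in fibroblasts, with 11 and 15 counts in induced cells, against 2 and 3 in normal cells. That is 0.648 and 1.08 CPM in induced and 0.125 and 0.172 CPM in normal cells, a log2 fold change of 2.43 (SE 0.61, adjusted p = 0.00113). Mx2 (chromosome 16, 97535308 to 97560900), which GENCODE M21 lists as a polymorphic pseudogene, was the more abundant. It had 5.24 and 4.32 CPM in induced cells, against 0.626 and 0.689 CPM in normal cells, and rose by 2.86 on the log2 scale (SE 0.28, adjusted p = 5.86e-12). The pair start 72401 bases apart with 1 protein-coding gene, Fam3b, among the 4 genes between them. As related copies they can share reads, so the split between them is uncertain.

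Rsad2 and Cmpk2 lie head to head on chromosome 12, with starts 12752 bases apart and no gene between them. Rsad2 (26442746 to 26456452) encodes viperin, a radical SAM enzyme known in human cells to turn CTP into a chain terminator of viral RNA synthesis. It had 27 and 17 counts in induced cells, against 2 and 1 in normal cells. The ratio of induced to normal counts per depth was 15.9, with a 95% counting interval from 5.09 to 79.9, and the gene passed the test (adjusted p = 4.63e-07). Cmpk2 (26469204 to 26479837) encodes a mitochondrial nucleoside monophosphate kinase that acts on UMP and CMP. It had 28 and 18 counts in induced cells, against 6 and 7 in normal cells, or 1.65 and 1.30 CPM in induced and 0.375 and 0.402 CPM in normal cells. Its log2 fold change was 1.91 (SE 0.42, adjusted p = 0.000210). Both genes of the pair were thus low in the normal libraries and higher in each induced one. Reads carry no molecular identifiers, so such intervals cover counting error only.

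Bst2, or tetherin, holds budding enveloped viruses on the cell surface (chromosome 8, 71534255 to 71537456). It had the highest normal level of the set, with 23.6 and 19.97 CPM in induced cells, against 8.32 and 9.36 CPM in normal cells. Its rise of 1.30 (SE 0.11, adjusted p = 7.39e-14), 2.47-fold, was the smallest of the 10. Ifi44, an interferon-induced protein with an antiviral role known from human cells (chromosome 3, 151730922 to 151749960), had 339 and 267 counts in induced cells, against 15 and 18 in normal cells. The rise of Ifi44 was the largest fitted one of the 10 (adjusted p = 5.48e-25). Its neighbour and relative Ifi44l had 1 and 3 counts in induced cells and 0 and 2 in normal cells and was not tested. Xaf1, known from human cells as a binding partner of the apoptosis inhibitor XIAP (chromosome 11, 72301629 to 72313733), had 20.9 and 22.6 CPM in induced cells, against 5.38 and 5.63 CPM in normal cells. It rose by 1.97 on the log2 scale (SE 0.12, adjusted p = 7.36e-19).

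With loss of Tcf7, 3 of the 5 effector genes that could be tested changed in Scid.adh cells. Of the 9 in the table, Mx1 and Herc6 rose and Bst2 fell, Isg15 and Usp18 did not pass, and Rsad2, Ifi44, Cmpk2 and Xaf1 were too rare to test. Of all 11941 tested genes 31.5% were called, 15.6% rising and 15.9% falling, so 2 and 1 of 5 tested genes are read against shares of that size. The median of the 5 was -0.39, beside -0.0039 for all tested genes. Isg15 and Usp18 passed the filter through the empty-vector libraries alone, which makes that median a description only.

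Mx1 had 32.2 and 27.2 CPM in knockout cells, against 16.7 and 16.8 CPM in empty-vector cells. Its log2 fold change, knockout minus empty vector, was 0.83 (SE 0.14, adjusted p = 0.000945). Herc6 had 20.3 and 20.4 CPM in knockout cells, against 10.98 and 10.9 CPM in empty-vector cells, and rose by 0.90 (SE 0.16, adjusted p = 0.00106). Both knockout libraries were above both empty-vector libraries for each gene. Against a threshold of 1.5-fold neither gene passed (adjusted p = 0.162 for Mx1 and 0.106 for Herc6), although their fitted changes were 1.77-fold and 1.86-fold.

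Bst2 had 42.1 and 40.9 CPM in knockout cells, against 51.7 and 57.1 CPM in empty-vector cells, with no overlap. It fell by 0.39 on the log2 scale (SE 0.10, adjusted p = 0.0103). That call was lost without empty-vector library 2 (log2 fold change -0.32, adjusted p = 0.111) and in DESeq2 (-0.38, adjusted p = 0.0546).

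The transcripts of Isg15 and of its protease gene Usp18 were at a low level in Scid.adh. Isg15 had 10 and 2 counts in knockout cells and 12 and 26 in empty-vector cells, so that libraries within a group differed several-fold and, in CPM, the groups overlapped. Its log2 fold change was -1.44 (SE 0.61, adjusted p = 0.0911). The fall passed the test without knockout library 1 (-2.99, adjusted p = 0.00329) or empty-vector library 1 (-1.92, adjusted p = 0.00267), with the replicate number as a block (-1.41, adjusted p = 0.0241) and in the fit of all 8 libraries (-1.46, adjusted p = 0.0336). Usp18 had 4 and 11 counts in knockout cells and 20 and 15 in empty-vector cells, with a log2 fold change of -0.999 (SE 0.48, adjusted p = 0.135). Without knockout library 2 it passed, also downward (-1.85, adjusted p = 0.0366). The calls of these rare transcripts thus depended on single libraries and on the fit.

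The other 4 genes were near the limit of detection. Cmpk2 had 5 and 5 counts in knockout cells, against 0 and 1 in empty-vector cells, a ratio of 11.6 with a 95% counting interval from 1.65 to 503. Xaf1 had 0 and 1 counts in knockout cells, against 2 and 2 in empty-vector cells, a ratio of 0.290 with an interval from 0.00588 to 2.93. Ifi44 had 2 and 1 counts in knockout cells and 0 in both empty-vector libraries. Rsad2 had 1 count in 1 library of each group. At these counts a difference in Xaf1, Ifi44 or Rsad2 was not detectable in Scid.adh, and the ratio of Cmpk2 rests on 1 empty-vector count. In the fit of all 8 libraries, where it could be tested, Cmpk2 rose (log2 fold change 3.27, adjusted p = 0.0191).

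Several markers of other cell types moved in the same comparison. The 5 plasmacytoid dendritic cell markers summed to 28.6 to 36.8 CPM in knockout and 11.5 to 13.9 CPM in empty-vector cells. Ccr9 and Flt3 made up most of both sums. Siglech and Klk1 were at 0 with the empty vector and had only 1 count each over the knockout libraries. The 7 macrophage markers summed to 10.7 to 11.5 CPM in knockout and 6.19 to 9.97 CPM in empty-vector cells. Itgam rose (log2 fold change 0.85, adjusted p = 0.0208), Cd68 did not pass and the others were not tested. Fcgr1 had 4 and 4 counts in knockout cells and 0 in both empty-vector libraries. Cd68, Csf1r and Aif1 had lower means in knockout cells. The 8 fibroblast markers summed to 11.2 to 11.8 CPM in knockout and 122 to 127 CPM in empty-vector cells. That lower sum was Pdgfrb, at 4.09 CPM in knockout and 122 CPM in empty-vector cells. Col1a1 (log2 fold change 2.22), Col1a2 (1.78) and Pdgfra (2.27) rose in knockout cells. Col3a1, Dcn and Lum were at 0 with the empty vector, and Dcn and Lum had only 1 count each over the knockout libraries. The part of these markers in the changes of Mx1, Herc6 and Bst2 was not tested.

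Whether the change of a gene differed between the 2 lines was tested in 1 fit of all 8 libraries, as the change in 3T3 minus the change in Scid.adh. The perturbations run in opposite directions, since TCF-1 was gained in 3T3 and its gene disrupted in Scid.adh. A gene that rises with the gain and falls with the loss thus also gives a positive difference. Passing this test therefore does not show that the response to TCF-1 differed between the lines. Among the 9 genes shared by the lines, 5 passed with a positive difference, against 14.6% of 15854 tested genes (30.7% in either direction). The difference was 4.16 for Isg15 (SE 0.57, adjusted p = 1.17e-06), 4.20 for Usp18 (SE 0.53, adjusted p = 1.65e-07) and 1.70 for Bst2 (SE 0.15, adjusted p = 1.60e-10). Herc6, which rose in both lines, rose more in 3T3 (difference 0.94, SE 0.22, adjusted p = 0.00120). For Mx1, which also rose in both, the difference of 1.60 missed the threshold (SE 0.64, adjusted p = 0.0578) and passed in 4 alternative fits, the lowest adjusted p being 0.0291 without knockout library 1. Xaf1 passed (difference 3.60, SE 1.35, adjusted p = 0.0407) on 1 and 4 Scid.adh counts, and the call was lost in 9 of 15 alternatives. Rsad2, Ifi44 and Cmpk2 did not pass, and their fitted differences rest on so few counts that they are not given.

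**Figure D2:**
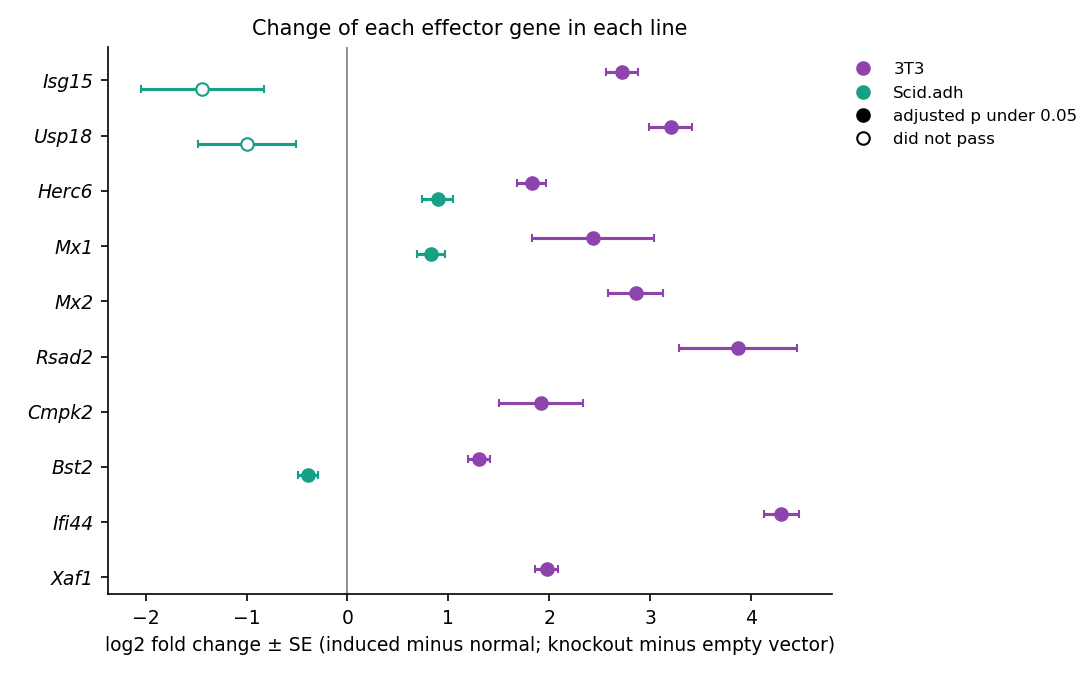
Log2 fold change with its SE for each effector gene tested in 3T3 (induced minus normal) and in Scid.adh (knockout minus empty vector), filled where the adjusted p was under 0.05. All 10 genes lie right of 0 in 3T3, while in Scid.adh Mx1 and Herc6 lie right of 0 and Bst2, Isg15 and Usp18 left of it.

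The genes also differed in their level, which was compared between genes as CPM per kb of exon. In induced 3T3 cells Bst2 (24.1) and Isg15 (19.0) led, followed by Xaf1 (4.64), Ifi44 (3.20) and Usp18 (3.08), the last pair overlapping between libraries. Herc6 (1.36) and Mx2 (1.32) also overlapped, and Cmpk2 (0.354), Rsad2 (0.325) and Mx1 (0.228) were lowest and overlapped in neighbouring pairs. In normal 3T3 cells the order was Bst2 (9.79), Isg15 (2.89), Xaf1 (1.17), Herc6 (0.383), Usp18 (0.333), Mx2 (0.182), Ifi44 (0.161), Cmpk2 (0.0934), Mx1 (0.0393) and Rsad2 (0.0211 CPM per kb), with no overlap between neighbours. Ifi44 thus stood above Usp18, Herc6 and Mx2 with TCF-1 induced and below them in normal cells, though its libraries overlapped those of Usp18 in the induced cells.

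In Scid.adh the order was another one. Bst2 led with 46.0 CPM per kb in knockout and 60.2 in empty-vector cells. Mx1, among the 2 rarest in normal fibroblasts, came second with 7.85 CPM per kb in knockout and 4.42 in empty-vector cells. Herc6 had 2.19 CPM per kb in knockout and 1.18 in empty-vector cells, and Isg15 had 0.961 in knockout and 2.64 in empty-vector cells. Usp18 had 0.321 CPM per kb in knockout and 0.648 in empty-vector cells. Cmpk2, Ifi44, Rsad2 and Xaf1 were at or below 0.144 CPM per kb in both groups.

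Levels in CPM set across the 2 lines come from tables scaled separately and are given as an order only. Mx1 and Bst2 were higher in both Scid.adh groups than in both 3T3 groups, without overlap between neighbouring groups. Ifi44, Xaf1 and Rsad2 were lowest in the Scid.adh groups, where for Rsad2 normal 3T3 and knockout Scid.adh libraries overlapped. Herc6 was highest in knockout Scid.adh cells, ahead of induced 3T3, empty-vector Scid.adh and normal 3T3 cells. Gm45193, which shares exon sequence with Herc6, was counted in 3T3 but is not among the genes counted in Scid.adh. Shared reads may thus have been counted differently in the 2 lines, which was not tested. Cmpk2 was highest in induced 3T3 cells, ahead of knockout Scid.adh, normal 3T3 and empty-vector Scid.adh cells. For Isg15 and Usp18 the induced 3T3 cells were highest and the other groups overlapped in part.

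**Figure D3:**
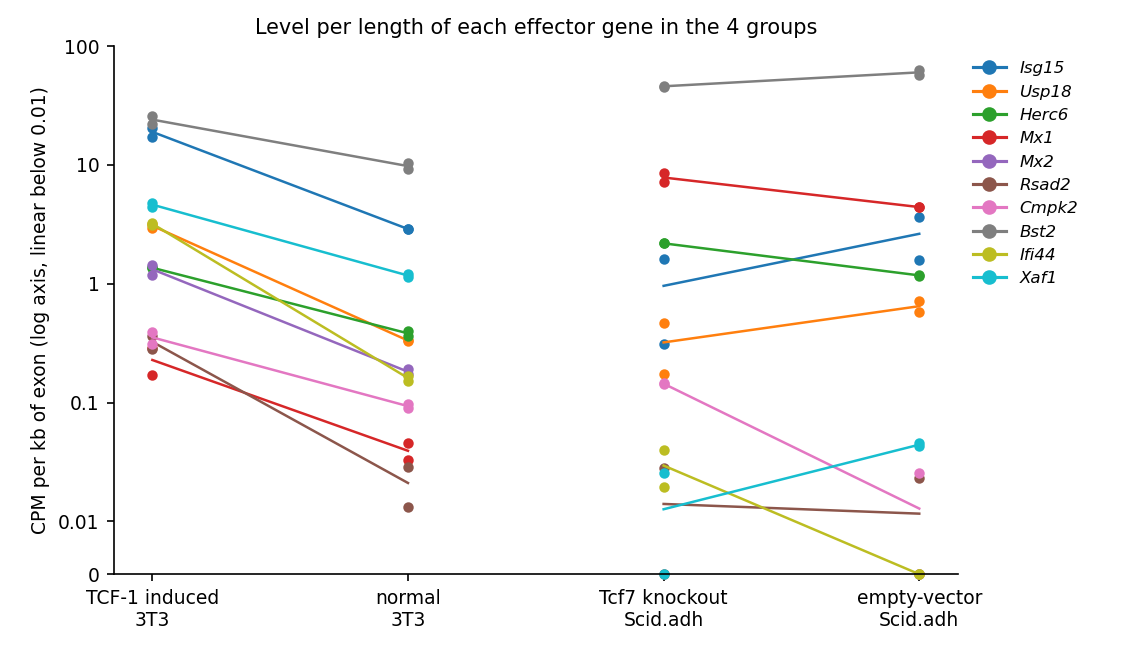
Level of each effector gene per length, in CPM per kb of exon (log axis, linear below 0.01), for each library (points) and group mean (ends of the lines) in the 4 groups. Bst2 is highest in every group, and Mx1 stands at 0.228 in induced and 0.0393 in normal 3T3 cells but at 7.85 in knockout and 4.42 in empty-vector Scid.adh cells.

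The rest of the interferon pathway was followed upstream from the effectors, on lists of genes with known roles. These lists too were chosen with earlier results of these data known. Counts of called genes are set beside the shares of all tested genes, 18.5% rising and 18.3% falling in 3T3 and 15.6% rising and 15.9% falling in Scid.adh. Some list genes passed the filter on low counts through the libraries of 1 group alone, so the counts and medians over the tested genes of a list are a description only. The 21 interferon genes all missed the filter on low counts in both lines. Over all of them there were 11 counts in induced and 10 in normal 3T3 cells, and 20 in knockout and 13 in empty-vector Scid.adh cells, with no more than 10 counts of a gene in a library. Ifnb1, which encodes interferon beta, had 0 and 4 counts in induced 3T3 cells and 0 in both normal libraries. Interferon transcripts were thus hardly detected in these libraries, and interferon protein was not measured here.

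Of the 9 tested receptor and kinase genes in 3T3, Ifnar1, Ifnar2, Ifngr1 and Il10rb rose, Ifngr2 and Jak1 fell and 3 did not pass (median log2 fold change 0.28). Ifnar2, a chain of the type I receptor, had 104 and 107 CPM in induced cells, against 58.2 and 60.6 CPM in normal cells (log2 fold change 0.83, SE 0.05). Ifnar1, the other chain, rose by 0.65 (SE 0.05). In Scid.adh, of 8 tested, the interferon gamma receptor chain Ifngr2 (1.33, SE 0.21) and the kinase gene Jak2 (0.31, SE 0.09) rose, Ifngr1 fell and 5 did not pass, with a median of 0.08.

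Among the STAT and IRF factors that carry the signal to the nucleus, 7 of 9 tested rose in 3T3, beside 18.5% of all tested genes, and the other 2 did not pass (median 0.62). Irf7, a factor that amplifies interferon production, had 8.25 and 8.22 CPM in induced cells, against 1.75 and 1.38 CPM in normal cells (2.40, SE 0.19). Irf9, the DNA-binding partner of STAT factors, had 37.9 and 31.1 CPM in induced cells, against 12.95 and 12.5 CPM in normal cells (1.45, SE 0.09). In Scid.adh Irf2, which can repress interferon-induced genes, had 27.4 and 31.2 CPM in knockout cells, against 40.1 and 36.3 CPM in empty-vector cells, and fell (-0.38, SE 0.12). Of the 10 tested there 8 did not pass, with a median of -0.19, and Irf5 and Irf7 passed the filter through 1 group alone.

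Sensors of foreign nucleic acid and their adaptors rose in 8 of 12 tested cases in 3T3, beside 18.5% of all tested genes, and 4 did not pass (median 0.55). Zbp1, a sensor of Z-form nucleic acid, had 13.8 and 13.1 CPM in induced cells, against 1.13 and 1.15 CPM in normal cells (3.56, SE 0.18). Dhx58, a helicase related to RIG-I, rose by 2.10 (SE 0.19). In Scid.adh, of 10 tested, Zbp1 (-1.77, SE 0.43), the adaptor gene Mavs (-0.63, SE 0.10) and Tmem173, which encodes STING, fell, beside 15.9% of all tested genes, and 7 did not pass, with a median of -0.30. Zbp1, which passed the filter through the empty-vector libraries alone, had 1.46 and 0.593 CPM in knockout and 3.83 and 3.20 CPM in empty-vector Scid.adh cells.

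The enzymes that load and transfer ISG15 bear directly on Isg15 and Herc6. In 3T3 the activating enzyme gene Uba7 (9.84 and 10.02 CPM in induced cells, against 4.32 and 4.60 CPM in normal cells; 1.15, SE 0.14), the conjugating enzyme gene Ube2l6 (0.62) and the ligase gene Trim25 (0.70, SE 0.04) rose, and Arih1 did not pass (median 0.66). In Scid.adh Trim25 fell (-0.36, SE 0.07) and Uba7 and Arih1 did not pass, with a median of -0.36, while Ube2l6 had 2 counts in knockout and 1 in empty-vector cells.

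Of 7 feedback inhibitors, Socs3 (0.89, SE 0.06), Ptpn11 (0.31, SE 0.04) and Pias1 rose in 3T3, Pias4 fell and 3 did not pass (median 0.21). In Scid.adh Socs1, which blocks JAK kinases, had 25 and 15 counts in knockout cells, against 2 and 4 in empty-vector cells, and passed the filter through the knockout libraries alone (2.90, SE 0.55, adjusted p = 0.00189). The other 6 inhibitors did not pass there, and the median was 0.16.

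A further 38 interferon-induced effectors were set beside the 10. In 3T3 34 of the 38 rose, beside 18.5% of all tested genes, Ifit2 fell (-0.17) and 3 did not pass, with a median of 1.22 that is the same with Oas1a at its bound. Of the 38, 5 passed the filter through the induced libraries alone (Oas1a, Oas2, Oas3, Ifitm1 and Ifi47). Oas1a, which makes a messenger that activates RNase L, had 42 and 22 counts in induced cells and 0 in both normal libraries. Its relative Oas2 had 18.7 and 16.7 CPM in induced cells, against 0.313 and 0.230 CPM in normal cells (6.01, SE 0.23). In Scid.adh 26 were tested, of which 15 fell, beside 15.9% of all tested genes, Sp100 (0.31) and Ifi47 (2.23) rose and 9 did not pass, with a median of -0.46. Of the 26, 7 passed the filter through the empty-vector libraries alone (Oas3, Ifitm2, Gbp3, Gbp7, Samhd1, Trim30a and Ifi204) and Ifi47 through the knockout libraries alone. Ifitm2, whose product blocks virus entry, had 0.122 and 0.712 CPM in knockout cells, against 29.2 and 30.4 CPM in empty-vector cells (-6.10, SE 0.32). Ifi204, a DNA sensor of the HIN-200 family, had 0.243 and 0.237 CPM in knockout cells, against 8.26 and 7.79 CPM in empty-vector cells (-4.98, SE 0.43). Mx1 and Herc6, which rose with the loss of Tcf7, thus moved against the larger number of called effectors in that line, a contrast that was not tested. Oas1a aside, genes of these lists given as changed without an SE beside them were named to fill a count after their values were seen.

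Many of the smaller list changes depended on single libraries, while no direction reversed under the alternatives. Of the 63 called list genes in 3T3, 4 lost their call without normal library 2 (Jak1, Irf3, Pias1 and Ifit2), and 2 or fewer without any other library. Of the 27 called in Scid.adh, 8 lost their call without empty-vector library 1. These included Irf2 (-0.31, adjusted p = 0.199), Jak2 (0.26, adjusted p = 0.143), Ifngr1 (-0.25, adjusted p = 0.265), Tmem173 (-0.48, adjusted p = 0.0689) and Sp100 (0.30, adjusted p = 0.209). Without empty-vector library 2, knockout library 1 and knockout library 2 the numbers lost were 7, 5 and 4. Of the 27, 6 were lost with upper-quartile factors, among them Irf2, and 12 in DESeq2. Against a threshold of 1.5-fold 23 of the 63 calls in 3T3 and 20 of the 27 in Scid.adh were lost.

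**Figure D4:**
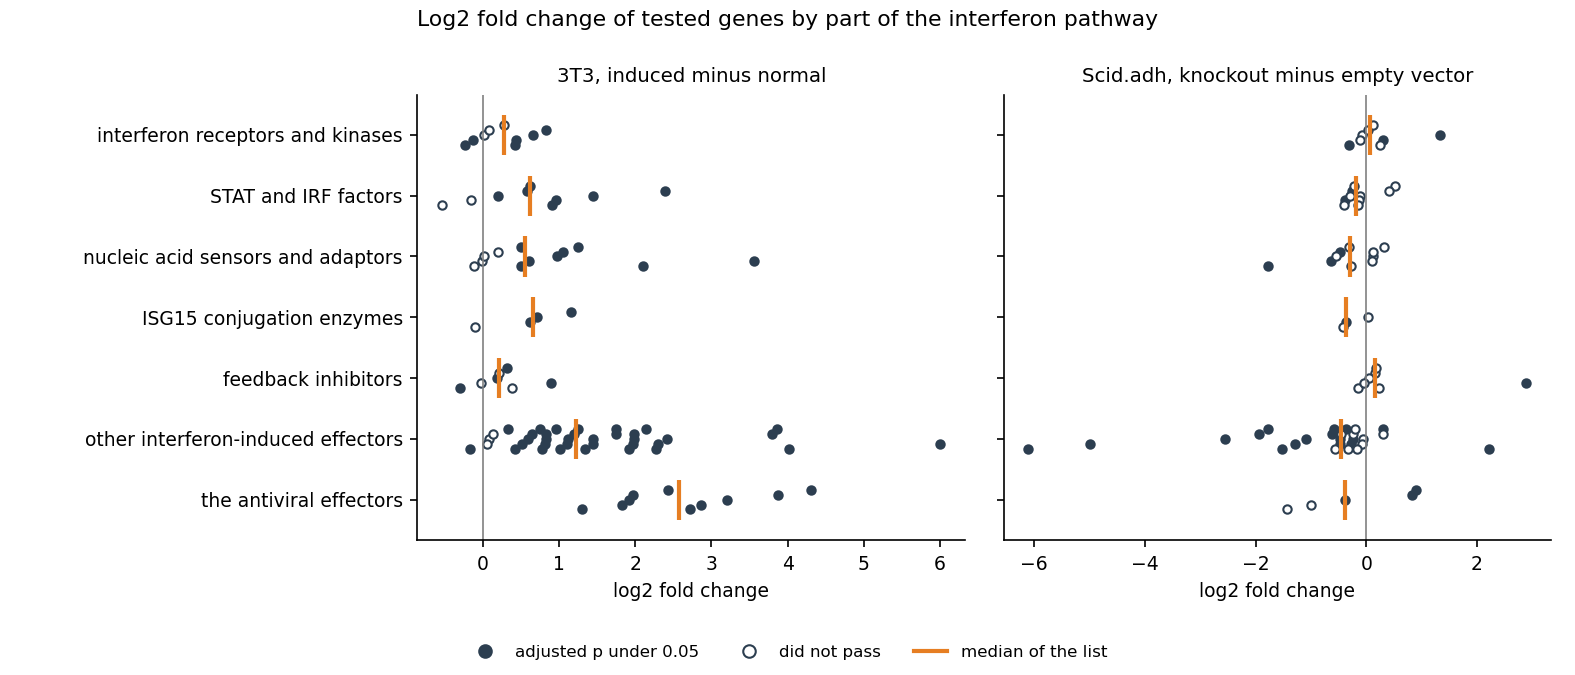
Log2 fold change of each tested gene by its place in the interferon pathway, in 3T3 (left, induced minus normal) and Scid.adh (right, knockout minus empty vector), filled where the adjusted p was under 0.05, with the median of each list as a bar; Oas1a, at 0 counts in normal 3T3 cells, is not drawn. In 3T3 the 10 antiviral effectors have a median of 2.58 and the other effectors 1.22, and in Scid.adh the medians are -0.39 and -0.46.

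The genes beside the effectors on the chromosome were looked at in the same fits. The nearest protein-coding genes on each side were 17 different genes. In 3T3 4 of the 6 tested rose, beside 18.5% of all tested genes, 2 did not pass and 11 were not tested. Agrn, the matrix protein gene beside Isg15, had 238 and 221 CPM in induced cells, against 129 and 128 CPM in normal cells (0.84, SE 0.04). Mvb12a beside Bst2 rose by 0.47 (SE 0.07), Rnf144a beside Rsad2 and Cmpk2 by 0.24 (SE 0.05) and Pyurf beside Herc6 by 0.22 (SE 0.08). The log2 fold change of each effector was larger than that of the neighbour named with it. The call of Pyurf was lost in DESeq2 (adjusted p = 0.181) and in fits that left out either normal library or induced library 2 (0.19 to 0.24). In Scid.adh Agrn fell (-0.31, SE 0.09, adjusted p = 0.0233), 8 neighbours did not pass and 8 were not tested. That call was lost with upper-quartile factors (-0.23, adjusted p = 0.0816), in DESeq2 and without empty-vector library 1 (-0.30), empty-vector library 2 (-0.31) or knockout library 2 (-0.26).

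The genes nearest to the mean profile of the effectors over all 8 libraries were sought among 13750 named genes. Distance was taken between log2 CPM profiles centred within each line. The 6 nearest to the mean profile of the 9 effectors in both tables were Dpt (distance 0.194), Ly6a (0.268), Prl2c3 (0.268), Serpina3g (0.286), Serpina3f (0.320) and Ly6c1 (0.365). In 3T3 these 6 rose by 2.08 to 2.37 on the log2 scale, and none was abundant enough to test in Scid.adh. Their nearness thus rests mainly on the 3T3 libraries, and every effector lay farther from the mean than they did. Of the effectors, Rsad2 was closest to the mean profile at rank 41, and Isg15 was farthest at rank 1898.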

How the data were processed

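The authors deposited whole-number counts of reads per Ensembl gene, with a separate file for each library. Per the labels' protocols, total RNA was made into stranded libraries with a SMARTer Pico kit and sequenced in pairs. STAR 2.5.0a, HTSeq 0.6.1 and GRCm38 (mm10) are named per the submitters' processing notes. The 3T3 reads were counted from merged alignments, per the file headers. Neither the annotation release nor the use of strand and duplicates is given in the sources used here. Summary rows, present in Scid.adh only, were left out (reads outside genes 21.3% to 25.8%, ambiguous reads 2.20% to 2.44%).

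The members and the gene lists were chosen with earlier results of these data known. Each line's whole table went through filterByExpr, TMM scaling and the robust quasi-likelihood test of edgeR 4.0.16 (R 4.3.3), with Benjamini-Hochberg adjustment over all genes tested. A gene was called when its adjusted p was below 0.05. Biological variation between libraries, as edgeR estimates it, was 2.41% (3T3) and 5.94% (Scid.adh). The difference between lines was fitted on 8 libraries and genes in both tables. CPM use TMM-scaled library sizes. Positions, biotypes and exon lengths came from GENCODE M21, and promoter windows from RefSeq. A gene with 1 to 3 counts in a group is given as a ratio with an exact counting interval. From each list, up to 2 called genes per line with the largest change and a mean of at least 1 CPM were named.

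Alternatives were size factors of DESeq2 (RLE), upper-quartile factors, DESeq2 1.42.0, limma-voom (limma 3.58.1), no filter, a minimum mean of 1 CPM, a block for the replicate number, 1 joint fit of both lines, a threshold of 1.5-fold and leaving out each library. Steps were tested on simulated data. Tables and figures used Python 3.11.15. The values of 1 gene of the lists are not reported here.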

Additional observations from a re-analysis of the deposited data

Results flagged for a closer look

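The following genes changed differently in the 2 lines, by the test of the difference itself in 1 edgeR fit of all 8 libraries (change in 3T3, induced minus normal, minus the change in Scid.adh, knockout minus empty vector). Isg15 (difference 4.16), Usp18 (4.20) and Bst2 (1.70) rose in 3T3 and had negative log2 fold changes in Scid.adh, where Bst2 alone passed the test. Herc6 (0.94) rose in both lines, and more in 3T3. The differences of these 4 genes passed in all 15 alternative fits. Xaf1 (3.60) rose in 3T3 and had 1 count in knockout and 4 counts in empty-vector Scid.adh cells. Its difference passed in 6 of 15 alternatives, with adjusted p-values from 0.00344 to 0.134. The 2 lines differ in cell type, in depth and in whether TCF-1 was gained or lost, and these cannot be told apart. A gene that rises with the gain and falls with the loss also gives a positive difference. Such a difference thus does not show that the response to TCF-1 differed between the lines.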

How the results depend on the processing

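In 3T3 all 123 values of single effector genes under the alternatives kept their direction and call. DESeq2 gave no adjusted p for Mx1, Rsad2 and Cmpk2 (unadjusted p 0.0120, 0.000144 and 0.00539, from a model across all genes) and so called 7 of 10. Those genes also missed the alternative filter of a mean of at least 1 CPM, and Mx2 was not in the joint fit. In Scid.adh 55 of 65 values kept their direction and call, 5 lost a call and 5 gained one. DESeq2 called 4012 genes in 3T3 and 1960 in Scid.adh, against 6693 and 3760, and the test against 1.5-fold called 917 and 724. That test left 0 effectors rising and 0 falling in Scid.adh, and DESeq2 0 falling. The joint fit gave 2 falling and, with Cmpk2 (log2 fold change 3.27, adjusted p = 0.0191), 3 rising. Leaving out 1 library gave 2446 to 4216 genes called in Scid.adh and 0 to 2 effectors falling, the lowest values without empty-vector library 1 (genes) and 2 (effectors). Upper-quartile factors gave 2455 genes rising and 1215 falling in Scid.adh, beside 1861 and 1899, and moved the median log2 fold change of all genes there to 0.0755. Same-numbered libraries did not deviate together (correlation 0.0124 in 3T3 and 0.00147 in Scid.adh), and with the replicate block 2 effectors fell in Scid.adh, Isg15 being added. Counts of the pathway lists stayed within 1.5 times in 281 of 308 cases. Of effectors whose change differed between lines there were 4 to 7. Low counts in Scid.adh limit what can be said of Rsad2, Ifi44, Cmpk2 and Xaf1 there.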
